A study of Homo sapiens with 6 samples.

Results

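ALK, NTRK2, NTRK3, RET, NGFR, IGF1R and ERBB3, 7 receptor genes with known roles in neuroblastoma, were followed in SK-N-BE(2) cells after knockdown of Prp19, a core factor of the spliceosome encoded by PRPF19. The 7 genes were taken by name from the 58302 genes listed in each sample, and all 7 were found. SK-N-BE(2) is an established human neuroblastoma cell line with adrenergic features. The study compared 3 samples transfected with a control siRNA (siNC, labelled NC) with 3 samples transfected with siRNA against Prp19 (siPrp19), with replicate numbers 1, 2 and 3 in each group, to look for genes that respond to loss of Prp19. The labels name no other treatment in any of the 6 samples and give 72 h after transfection, while the study's methods give a shorter time. The knockdown followed here is transient and rests on 1 cell line, while the study also sequenced SK-N-AS cells. The labels do not say which siRNA sequence was used, and the study states that it chose the first of its Prp19 siRNAs for its later assays. Levels are given as FPKM, the fragments per kilobase of exon, scaled between libraries as deposited.

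These receptors pass growth and survival signals from outside the cell. ALK, RET, TrkB (NTRK2), TrkC (NTRK3) and the IGF1 receptor are receptor tyrosine kinases that recruit adaptors and turn on the RAS-MAPK and PI3K-AKT cascades. ALK is mutated or amplified in part of neuroblastomas, and RET and the Trk receptors act in the growth and maturation of sympathetic neurons. NGFR has no kinase domain and works with the Trk receptors or through its own death domain. ERBB3 binds neuregulins but has little kinase activity of its own, so that it signals through a partner such as ERBB2.

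PRPF19 measured 53.1, 53.1 and 64.9 FPKM in replicates 1, 2 and 3 of siNC, compared with 21.8, 28.5 and 33.6 FPKM in those of siPrp19, so every library was on the side of its label. The siPrp19 mean was 49.0% of the siNC mean, with an adjusted p of 0.9999 in limma and of 2.54e-13 in voom on the recovered reads with the replicate number as a block. Between 16919069 and 21807712 reads were recovered per sample on the genes whose values gave whole reads. The siNC and siPrp19 samples of 1 replicate number shared part of their departure from the group means, with correlations of 0.38, 0.57 and 0.64 across genes in pairs 1, 2 and 3. This is why changes are given within same-numbered pairs. All 9 adrenergic markers, among them HAND2 and GATA3, were above a mean of 1 FPKM. Of 6 Schwann lineage markers, SOX10, FOXD3 and CDH19 were listed at 0 in every sample, and the summed level was 1.90 to 3.31 FPKM with siNC and 2.70 to 3.25 with siPrp19. Of 5 fibroblast markers, COL1A2 stayed at 0.0039 to 0.045 FPKM, while the other 4, among them COL1A1 at 34.7 to 46.5 FPKM, were above 1 FPKM. The fibroblast sum was 120 to 141 FPKM with siNC and 110.5 to 136 with siPrp19, and the part of these markers in the results below was not tested. Of 3 immune markers, CD3E was listed at 0 and the sum was 0.503 to 0.666 FPKM with siNC and 0.566 to 1.42 FPKM with siPrp19.

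The 7 receptors fell into a group that was clearly transcribed and a group close to 0. RET, IGF1R, ALK and NGFR had means between 4.29 and 21.6 FPKM with siNC, whereas NTRK2, NTRK3 and ERBB3 stayed below 0.13 FPKM in every sample. In siNC cells RET came first with 21.6 ± 6.20 FPKM (SD, n = 3) and IGF1R followed with 19.6 ± 4.17 FPKM (SD, n = 3). Their ranges overlapped, and the ratio of RET to IGF1R was 1.17 and 1.75 in siNC replicates 1 and 3 but 0.622 in replicate 2. ALK came next with 8.83 ± 2.27 FPKM (SD, n = 3), and its 3 siNC values lay below all those of RET and IGF1R. NGFR had 4.29 ± 1.12 FPKM (SD, n = 3), below all ALK values. Among the 14462 genes averaging 1 FPKM or more, which were those tested, the siNC means of RET, IGF1R, ALK and NGFR were higher than those of 85.5%, 83.8%, 63.1% and 40.9% of genes. These levels are per length of all annotated exons of a gene, and the isoforms of 1 gene, such as the kinase-bearing and truncated forms of TrkB, cannot be told apart.

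**Figure D1:**
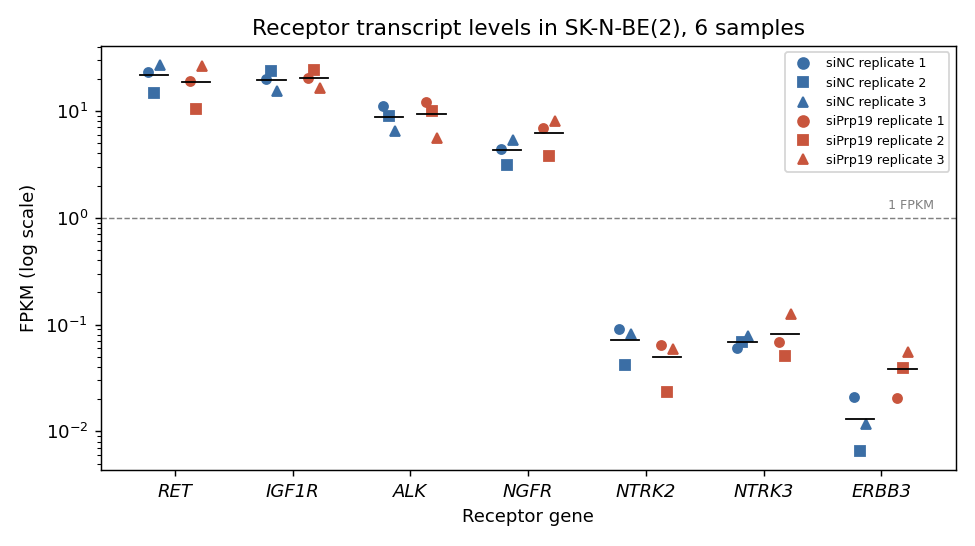
FPKM (log axis) of the 7 receptor genes in each of the 6 samples, with siNC in blue, siPrp19 in red, a marker shape for each replicate number and a black line at each group mean. RET, IGF1R, ALK and NGFR lie above the dashed line at 1 FPKM, and NTRK2, NTRK3 and ERBB3 lie below 0.13 FPKM, and the siNC and siPrp19 values overlap for each of the 7 genes.

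For none of the 7 receptors were the groups of 3 samples separated: the siPrp19 values overlapped the siNC values in 7 of 7 genes. Of all genes tested, 2.77% had every siPrp19 value above every siNC value and 2.84% had every siPrp19 value below. By limma with Benjamini-Hochberg adjustment, 0 of the 4 receptors above 1 FPKM had an FDR under 0.05, and 0 of the 14462 genes did (0%), with 225 genes at an unadjusted p under 0.05. In the blocked fit, which compares within replicate numbers, 0 genes passed as well (0%), while 2265 genes had an unadjusted p under 0.05. Voom without the block called 0 genes, with 184 at an unadjusted p under 0.05. In bulk RNA, fewer cells that make a transcript and less of it per cell cannot be told apart. Within pairs, NGFR and IGF1R were higher with siPrp19 in 3 of 3 pairs, as were 19.2% of all genes tested, RET was lower in 3 of 3, as were 21.3% of genes, and ALK was mixed. On the recovered reads, limma voom with the replicate block called 3.58% of genes higher and 4.23% lower at an FDR under 0.05. Among the receptors that fit called NGFR higher and RET lower.

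**Figure D2:**
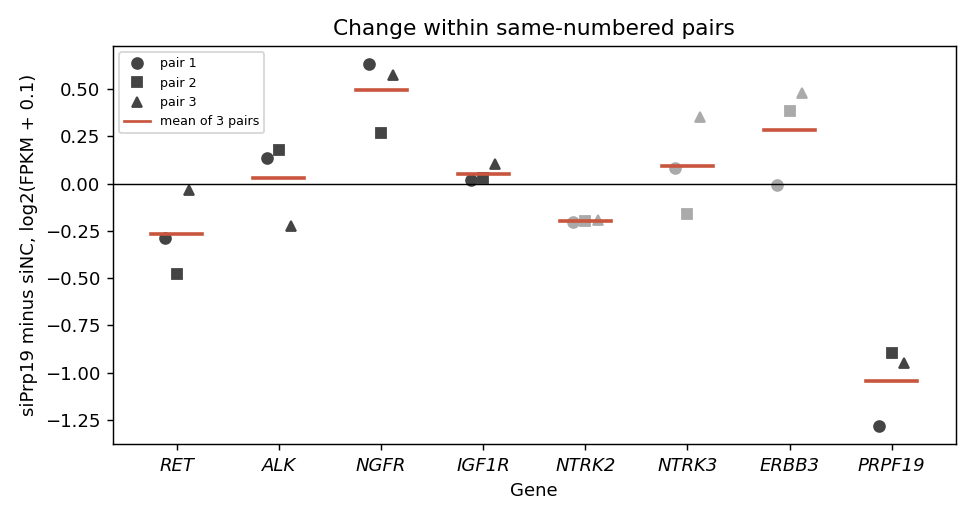
Difference between siPrp19 and siNC within each same-numbered pair, on the log2(FPKM + 0.1) scale, for the 7 receptors and PRPF19, with a red line at the mean of the 3 pairs and pale points for the genes below 1 FPKM. NGFR lies between 0.27 and 0.63 in the 3 pairs, RET between −0.48 and −0.03, and PRPF19 between −1.28 and −0.90.

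NGFR (ENSG00000064300), the low-affinity receptor shared by all neurotrophins, maps to chr17:49495293-49515017 on the plus strand (GRCh38, GENCODE release 29). It measured 4.42, 3.11 and 5.34 FPKM in replicates 1, 2 and 3 of siNC, compared with 6.90, 3.77 and 8.0 FPKM in those of siPrp19. Replicate 2 was lowest in both groups, and its siPrp19 value lay inside the siNC range, whereas the other two siPrp19 samples exceeded every siNC sample. These values rest on 227 to 438 reads with siNC and 325 to 824 reads with siPrp19. The siPrp19 level was 1.56, 1.21 and 1.5 times the siNC level in pairs 1, 2 and 3. The siPrp19 mean was 6.23 ± 2.20 FPKM (SD, n = 3) beside 4.29 FPKM with siNC, a log2 fold change of 0.49 in limma (standard error 0.33, adjusted p 0.9999). A two-sided exact permutation test, which ignored the replicate numbers, returned p = 0.30, the smallest possible value for 3 against 3 samples being 0.10. Adding the replicate number as a block reduced the standard error to 0.09, with an adjusted p of 0.197. In voom with the block the log2 fold change was 0.55 and the adjusted p was 0.000204. Leaving out 1 sample moved the log2 fold change of the fit with no block to 0.28 (without siPrp19 replicate 3, or without siNC replicate 2) at the lowest and 0.81 (without siPrp19 replicate 2) at the highest. Genes overlapping NGFR on the opposite strand had at most 0.331 FPKM in any sample.

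RET (ENSG00000165731), the signaling receptor for the GDNF family of ligands, maps to chr10:43077027-43130351 on the plus strand. It measured 23.3, 14.7 and 26.8 FPKM in replicates 1, 2 and 3 of siNC, compared with 19.0, 10.5 and 26.1 FPKM in those of siPrp19. In each group replicate 3 was highest and replicate 2 lowest. Replicate 3 had 1.82 times the RET of replicate 2 with siNC and 2.49 times with siPrp19, which exceeds any difference within a pair. The siPrp19 level was 0.818, 0.715 and 0.977 times the siNC level in pairs 1, 2 and 3, so the third pair hardly differed. The siPrp19 mean was 18.6 ± 7.82 FPKM (SD, n = 3), and limma gave a log2 fold change of −0.27 with a standard error of 0.37 and an adjusted p of 0.9999. A two-sided exact permutation test, which ignored the replicate numbers, returned p = 0.60. The block reduced the standard error to 0.09 (adjusted p 0.291), and in voom with the block the log2 fold change was −0.24 with an adjusted p of 0.0152. In the fit with no block the log2 fold change turned to 0.09 without siPrp19 replicate 2, and it was −0.09 without siNC replicate 3, −0.52 without siNC replicate 2 and −0.56 without siPrp19 replicate 3.

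RET and NGFR followed the same order of replicate numbers in both groups, and their ratio was lower in the siPrp19 samples. The ratio of RET to NGFR was 5.26, 4.73 and 5.01 in siNC replicates 1, 2 and 3 and 2.75, 2.79 and 3.27 in the siPrp19 replicates. The groups did not overlap. Among the other genes tested, the ratio of RET to a gene was likewise lower without overlap for 2.59%, and the ratio of a gene to NGFR for 10.3%. In log2 terms the ratio changed by −0.93, −0.76 and −0.62 in pairs 1, 2 and 3, and a two-sided exact permutation test returned p = 0.10, the smallest 3 against 3 samples allow. This ratio was chosen after the values were seen, from several ratios examined, of which 3 are given here. The ratios of RET to IGF1R and of RET to ALK overlapped between groups (p = 0.60 and 0.70, exact permutation tests).

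**Figure D3:**
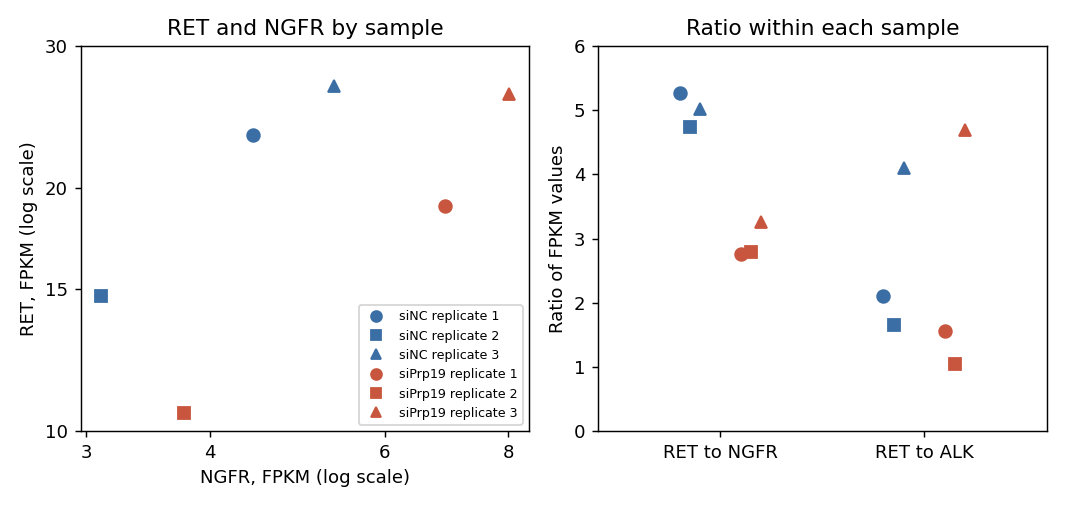
Left, RET against NGFR in FPKM, both on log axes, in the 6 samples. Right, the ratio of RET to NGFR and of RET to ALK within each sample, where RET to NGFR lies at 4.73 to 5.26 in the 3 siNC samples and at 2.75 to 3.27 in the 3 siPrp19 samples, and RET to ALK overlaps at 1.65 to 4.10 and 1.04 to 4.69 (points, blue for siNC and red for siPrp19).

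ALK (ENSG00000171094), the receptor kinase activated by ALKAL1 and ALKAL2, maps to chr2:29192774-29921566 on the minus strand. It measured 11.1, 8.89 and 6.53 FPKM in replicates 1, 2 and 3 of siNC, compared with 12.2, 10.1 and 5.58 FPKM in those of siPrp19. Replicate 1 was highest and replicate 3 lowest in both groups, by 1.70-fold with siNC and 2.18-fold with siPrp19. The siPrp19 level was 1.10, 1.13 and 0.854 times the siNC level in pairs 1, 2 and 3. The limma fit put ALK at a log2 fold change of 0.03 with a standard error of 0.33 and an adjusted p of 0.9999, and the block reduced the standard error to 0.10 (adjusted p 0.907). The sign turned without siNC replicate 3 (−0.17), siPrp19 replicate 1 (−0.20) or siPrp19 replicate 2 (−0.07). Without both replicate 3 samples it was 0.16, while it was −0.02 without both replicate 1 samples and −0.04 without both replicate 2 samples. ALK rested on 951 to 2034 reads per sample.

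IGF1R (ENSG00000140443), the receptor for IGF1 and IGF2, maps to chr15:98648539-98964530 on the plus strand. It measured 19.9, 23.6 and 15.3 FPKM in replicates 1, 2 and 3 of siNC, compared with 20.2, 24.1 and 16.4 FPKM in those of siPrp19. The order of replicates was 2, 1 and 3 in both groups, the opposite of RET and NGFR for replicates 2 and 3. The siPrp19 level was 1.01, 1.02 and 1.07 times the siNC level in the 3 pairs, which makes IGF1R the receptor above 1 FPKM with the smallest range of change within pairs. The limma fit gave a log2 fold change of 0.05 with a standard error of 0.21 and an adjusted p of 0.9999. The block reduced the standard error to 0.05 (adjusted p 0.641). The sign turned without siNC replicate 3 (−0.12) or siPrp19 replicate 2 (−0.08). AC036108.1, an antisense gene inside IGF1R, had at most 2.95 FPKM, and whether the authors counted reads by strand is not given in the sources used here.

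Over centred log2(FPKM + 0.1) values, the root mean square difference was 0.29 between ALK and IGF1R and 0.39 between RET and NGFR, against 0.66 to 0.76 for the other combinations. The departure of each profile from a flat one was 0.24 for IGF1R, 0.40 for ALK, 0.47 for NGFR and 0.48 for RET, so that IGF1R lay closer to a flat profile than to ALK. By the same measure over the 14462 genes, the genes nearest to RET were RIBC2 (0.0526) and TSPAN11 (0.0527), those nearest to ALK were ZBTB25 (0.0771) and NELL2 (0.0809), those nearest to NGFR were FNDC10 (0.0958) and AL645608.2 (0.0993), and those nearest to IGF1R were PES1 (0.0214) and DCLK2 (0.0226). These are values over 6 samples that share replicate numbers and a cell line.

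NTRK2, NTRK3 and ERBB3 were close to 0 in all samples. NTRK2 (ENSG00000148053, chr9:84668551-85027070, plus strand), the BDNF receptor, measured 0.0901, 0.0418 and 0.0819 FPKM in replicates 1, 2 and 3 of siNC, compared with 0.0648, 0.0236 and 0.0594 FPKM in those of siPrp19. It was lower with siPrp19 in 3 of 3 pairs on 10 to 40 reads per sample, with overlap between groups (exact permutation p = 0.40). NTRK3 (ENSG00000140538, chr15:87859751-88256768, minus strand), the receptor for neurotrophin-3, had 0.0600, 0.0679 and 0.0775 FPKM with siNC and 0.0691, 0.0503 and 0.127 FPKM with siPrp19. The highest value, in siPrp19 replicate 3, rests on 84 reads and the others on 28 to 42. ERBB3 (ENSG00000065361, chr12:56076799-56103505, plus strand) had 0.0212, 0.00656 and 0.0117 FPKM with siNC and 0.0203, 0.0389 and 0.0559 FPKM with siPrp19. By its exon length in GENCODE release 29 these are only about 4, 1 and 2 reads against 4, 7 and 13 reads, and the groups overlapped. In limma with no filter on low values the adjusted p was 0.9989 for each of the 3 genes, on a scale where a pseudocount of 0.1 exceeds most of these values. No gene passed in that fit, so it does not separate these 3 genes from others.

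BDNF, the ligand of the NTRK2 product, measured 1.12, 1.09 and 1.47 FPKM in replicates 1, 2 and 3 of siNC, compared with 1.29, 1.11 and 1.58 FPKM in those of siPrp19. It was higher with siPrp19 in 3 of 3 pairs, and the groups overlapped. BDNF and the co-receptor GFRA2 were chosen for naming after their values were seen.

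Of 18 ligands of these receptors, 9 averaged 1 FPKM or more and 0 had an FDR under 0.05 by limma, with a log2 fold change above 0 for 6 of the 9 and a median of 0.11, against a median of 0.00 over all genes tested. The median was −0.17 among the ligands averaging 5 FPKM or more, and from 0.04 to 0.32 with samples or pairs left out. Of the 9, 4 were higher and 2 lower with siPrp19 in 3 of 3 pairs, beside 19.2% and 21.3% of all genes. Voom with the block called 1 of them higher (NRG1) and 2 lower, namely IGF2 (log2 fold change −0.22, adjusted p 0.0163) and PTN (−0.15, adjusted p 0.0496), beside 3.58% and 4.23% of all genes. The 3 most abundant were PTN, MDK and IGF2. PTN, pleiotrophin, a growth factor also proposed to act on ALK, had 176, 168 and 259 FPKM with siNC and 149, 151 and 239 FPKM with siPrp19, lower in 3 of 3 pairs. The dedicated ALK ligands ALKAL1 and ALKAL2 were under 1 FPKM, and IGF1 was listed at 0 in every sample. Of the GDNF family, GDNF and ARTN were under 1 FPKM, while NRTN and PSPN had means of 1.12 and 1.41 FPKM over all samples. IGF2, a ligand of IGF1R, measured 60.4, 57.8 and 6.28 FPKM in replicates 1, 2 and 3 of siNC, compared with 56.1, 44.0 and 5.43 FPKM in those of siPrp19. IGF2 was thus 9.63-fold higher in replicate 1 than in replicate 3 with siNC and 10.3-fold with siPrp19, far more than the 1.30-fold and 1.23-fold of its receptor IGF1R.

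Of the 4 neuregulins, the ligands of ERBB3 and ERBB4, NRG1 and NRG2 were separated between groups, as was ERBB2, while NRG3 and NRG4 stayed below 0.46 FPKM in every sample and overlapped. NRG1 had 1.5, 1.42 and 1.69 FPKM with siNC and 1.96, 1.97 and 2.03 FPKM with siPrp19, a log2 fold change of 0.35 in limma (standard error 0.18, adjusted p 0.9999). NRG2 had 0.872, 0.867 and 0.906 FPKM with siNC and 1.62, 1.01 and 0.981 FPKM with siPrp19, where replicate 1 carried most of the difference. With a siNC mean of 0.882 FPKM, NRG2 passed the filter at 1 FPKM only through the siPrp19 samples, which favours its separation. ERBB2, the kinase partner of ERBB3, had 1.39, 1.22 and 1.15 FPKM with siNC and 2.04, 1.56 and 1.5 FPKM with siPrp19, a log2 fold change of 0.41 in limma (standard error 0.23, adjusted p 0.9999). For each of these 3 genes every siPrp19 sample exceeded every siNC sample, as in 2.77% of all genes tested, and they were named for this separation. For such groups a two-sided exact permutation test can only return p = 0.10, the smallest possible, so it adds no support. In voom with the replicate block the adjusted p was 0.00890 for NRG1, 0.00463 for ERBB2 and 0.122 for NRG2. EGFR, which can also pair with ERBB3, had 11.2, 11.6 and 11.3 FPKM with siNC and 10.7, 11.0 and 11.7 FPKM with siPrp19. ERBB4 was under 0.1 FPKM in every sample.

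Of 16 partner and related receptors, 11 were above a mean of 1 FPKM, with 6 log2 fold changes below 0 and 5 above, and the median was −0.00 (0.18 without siPrp19 replicate 2). ERBB2 was the 1 gene of this list whose groups did not overlap, higher with siPrp19 as in 2.77% of all genes tested. KIDINS220, IGF2R and EGFR were the most abundant. KIDINS220, a scaffold of Trk receptors, had 19.5, 20.1 and 18.8 FPKM with siNC and 19.5, 21.1 and 18.5 FPKM with siPrp19, and IGF2R, which clears IGF2 without a kinase, had 17.4, 17.3 and 21.8 FPKM against 15.9, 16.4 and 21.2 FPKM. Of the RET co-receptors, GFRA2 had 6.11, 4.26 and 6.90 FPKM with siNC and 6.71, 3.95 and 6.60 FPKM with siPrp19, while GFRA1, GFRA3 and GFRA4 were under 1 FPKM.

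Below the receptors, 34 of 37 adaptors and kinases of the RAS-MAPK and PI3K-AKT cascades were above 1 FPKM, of which 22 had a log2 fold change below 0 and 12 above, with a median of −0.03 (0.04 without siNC replicate 2). By limma 0 of the 34 had an FDR under 0.05, and 11 were lower and 7 higher in 3 of 3 pairs, against 21.3% and 19.2% of all genes. SHC1, NRAS and GAB2 were the most abundant. SHC1, an adaptor of Trk, ALK and RET, had 71.2, 59.6 and 74.3 FPKM with siNC and 66.3, 50.5 and 75.8 FPKM with siPrp19, and NRAS was lower in 3 of 3 pairs at 41.9, 53.8 and 56.9 FPKM against 35.4, 50.8 and 52.7 FPKM. GAB2, a docking adaptor, was higher in 3 of 3 pairs at 37.2, 43.6 and 23.3 FPKM against 38.8, 46.8 and 26.5 FPKM. The groups did not overlap for AKT2 (7.0, 6.12 and 6.74 against 7.30, 7.12 and 7.25 FPKM) and MAP2K2 (28.6, 28.6 and 24.5 against 28.7, 28.9 and 29.1 FPKM), both higher with siPrp19 by little, as in 2.77% of all genes tested. In voom with the block, 3 of the 34 genes were called lower and 0 higher, beside 4.23% and 3.58% of all genes, namely GAB1 (log2 fold change −0.33), MAP2K1 (−0.28) and IRS2 (−0.20), named after their values were seen.

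**Figure D4:**
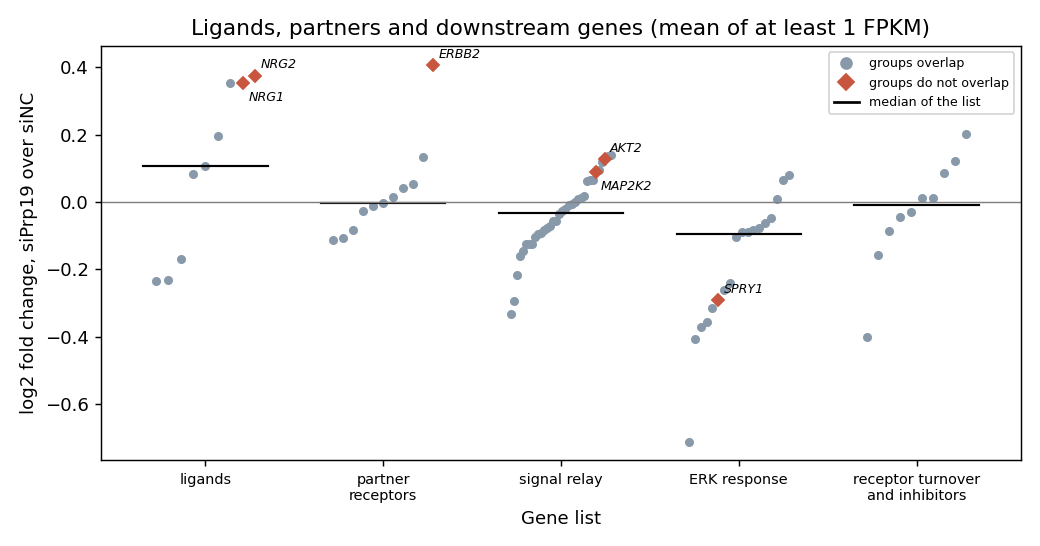
Log2 fold change of siPrp19 over siNC from limma on log2(FPKM + 0.1) for each gene averaging 1 FPKM or more in 5 gene lists, sorted within a list, with a black line at the list's median and red diamonds where the 3 siPrp19 and 3 siNC values do not overlap. The ERK response genes have a median of −0.10 with 15 of 18 genes below 0, and the diamonds are NRG1, NRG2, ERBB2, AKT2, MAP2K2 and SPRY1. Of all genes tested, 2.77% did not overlap with siPrp19 higher and 2.84% with siPrp19 lower. NRG2 passed the filter at 1 FPKM only through the siPrp19 samples.

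Of 18 genes that respond to ERK, the last kinase of the MAPK cascade, all 18 were above 1 FPKM and 15 had a log2 fold change below 0, with a median of −0.10, where 7373 of the 14462 genes tested were below 0. The median was 0.02 without siPrp19 replicate 1, and it was −0.26 without siNC replicate 1, −0.24 without siNC replicate 3 and −0.33 without siPrp19 replicate 2. By limma 0 of the 18 had an FDR under 0.05. In 3 of 3 pairs 9 genes were lower and 0 higher, beside 21.3% and 19.2% of all genes. SPRY1, a feedback inhibitor of receptor signaling, had 4.65, 4.84 and 4.39 FPKM with siNC and 3.80, 4.10 and 3.41 FPKM with siPrp19. It was the 1 gene of the list whose groups did not overlap, lower with siPrp19 as in 2.84% of all genes tested. The limma fit gave a log2 fold change of −0.29 with a standard error of 0.13 and an adjusted p of 0.9999, and the adjusted p was 0.0752 in voom with the block. That fit called 5 of the 18 genes lower and 0 higher, beside 4.23% and 3.58% of all genes, namely FOSL1 (log2 fold change −0.65), ERRFI1 (−0.41), SPRED1 (−0.36), FOS (−0.33) and PHLDA1 (−0.31), named after their values were seen. The 3 most abundant, IER3, DUSP4 and EGR1, differed by replicate number in both groups. EGR1 had 12.8, 71.8 and 13.6 FPKM with siNC and 7.92, 68.0 and 13.5 FPKM with siPrp19, so that replicate 2 was the highest in both groups. IER3 with 170 and 175 FPKM and DUSP4 with 73.4 and 68.3 FPKM were also highest in replicate 2 of siNC and siPrp19.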

How the data were processed

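The authors deposited 1 table of FPKM values per sample. The submitters' processing notes name HISAT2 2.0.5 and featureCounts 1.5.0-p3 with build hg38, and the annotation and use of strand are not given in the sources used here. GENCODE release 29 supplied names, positions and exon lengths for 58039 of the 58302 gene identifiers. Value times exon length was a whole multiple, within 0.05, of 1 step per sample in all samples for 95.9% of the 37521 such genes listed above 0, and gave the reads. IGF1R, ERBB3 and some list genes such as IGF2 were not among them, so their reads, which voom also used, are approximate. Median-of-ratios factors were equal in all samples, so this scaling left the deposited values unchanged. Then limma 3.58.1 in R 4.3.3 (eBayes with trend, Benjamini-Hochberg adjustment, no block) was run on log2(FPKM + 0.1). It covered the 14462 genes averaging 1 FPKM or more, on a scale that shrinks changes of low genes. Replicate numbers come from the labels, and the deviations from the group means within pairs 1, 2 and 3 correlated at 0.38, 0.57 and 0.64 across genes, so the numbers were taken to pair the samples. Alternatives tried were another pseudocount (1), other filters (none, or a mean of 5 FPKM or more), TPM, quantile normalization, the replicate block, voom on the reads (blocked or not), and leaving out each sample or pair. The filter at 5 FPKM with the block was added after seeing the data. Members and lists were chosen with earlier results of these data known. Named beside the members and PRPF19 were the 3 most abundant genes of each list, genes above 1 FPKM whose groups did not overlap, the 2 nearest profiles of each transcribed receptor, and others where stated. Exact permutation tests ignored the replicate numbers and used scipy 1.17.1 under Python 3.11.15. Python tables and plots used pandas 2.3.3, numpy 2.4.6 and matplotlib 3.10.9. Some genes counted in the lists are not reported here by name.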

Additional observations from a re-analysis of the deposited data

How the results depend on the processing

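The count of genes at an FDR under 0.05 was 0 with limma and in 16 of its alternatives. It was 1127 in voom on the recovered reads with the replicate block and 124 with the 5 FPKM filter and the block. In voom with the block the log2 fold changes of NGFR (0.55), RET (−0.24) and PRPF19 (−1.03) passed an adjusted p of 0.05, and with the 5 FPKM filter and the block that of PRPF19 did (−1.04). The block changed no other call among the receptors. With samples or same-numbered pairs left out, log2 fold changes spanned −0.20 to 0.35 for ALK, −0.56 to 0.092 for RET, −0.12 to 0.20 for IGF1R and −0.078 to 0.22 for NTRK3, which was −0.078 without siPrp19 replicate 3 and −0.04 without both replicate 3 samples. The causes were not tested. NGFR kept its direction in every alternative, from 0.28 to 0.81. So did NTRK2 (−0.568 to −0.03) and ERBB3 (0.035 to 1.395) in each alternative that covered them. NTRK2, NTRK3 and ERBB3 rest on 84 reads or fewer per sample.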

Other observations

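The list of 12 genes that limit or remove receptor signals held 10 genes above 1 FPKM, of which 5 had a log2 fold change below 0 and 5 above, with a median of −0.01 (−0.10 without siPrp19 replicate 2, −0.06 without siNC replicate 3 and 0.05 without both replicate 1 samples) and 0 genes at an FDR under 0.05 by limma. Its 3 most abundant genes were IGF-binding proteins, which hold IGF1 and IGF2 outside the cell. IGFBP3 measured 64.2, 78.0 and 94.5 FPKM in replicates 1, 2 and 3 of siNC, compared with 46.0, 62.6 and 71.3 FPKM in those of siPrp19, lower in 3 of 3 pairs, a log2 fold change of −0.40 in limma (standard error 0.22, adjusted p 0.9999). IGFBP4 had 79.7, 88.3 and 60.1 FPKM with siNC and 97.7, 87.8 and 74.8 FPKM with siPrp19, higher in pairs 1 and 3. IGFBP2 had 78.1, 71.8 and 96.6 FPKM with siNC and 89.5, 71.6 and 108.5 FPKM with siPrp19. In voom with the replicate block the adjusted p was 4.18e-06 for IGFBP3, 0.0184 for IGFBP4 and 0.0997 for IGFBP2. Among genes averaging 5 FPKM or more, limma with the block gave an adjusted p of 0.0332 for IGFBP3. The groups overlapped for all 3 genes.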
